A study of Mus musculus with 8 samples.

Results

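Toll-like receptors are the sensors with which microglia, the resident macrophages of the brain, detect microbial lipids, nucleic acids and products of damaged cells. The 10 genes described here are 7 Toll-like receptors (Tlr1, Tlr2, Tlr3, Tlr4, Tlr7, Tlr9 and Tlr13), the co-receptor Cd14, the accessory protein gene Ly86 and the adaptor Myd88. Their rows were taken by name from the 35583 genes of the deposited tables, and the names were chosen with earlier results of these data known. All 10 passed the filter on low counts. Young mice of wild-type genotype had received dye-labelled plasma protein 20 hours before their hypothalamic microglia were sorted. Cells that carried the dye are called plasma-positive and cells that did not are called plasma-negative, and each group is represented by 4 bulk libraries. Both groups share the injection, and no library comes from a mouse without it. The sample labels give the tissue only as brain, and the hypothalamus is named in the series description. The labels do not give the mouse line, the sorting gates, the number of cells, or whether animals were pooled or shared between groups. P-values therefore measure the spread between these libraries, which may be technical.

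Surface receptors such as Tlr2 and Tlr4 bind lipoproteins and lipopolysaccharide at the plasma membrane, and Cd14 hands these ligands to them. Tlr3, Tlr7, Tlr9 and Tlr13 read nucleic acids inside endosomes, which they reach with the chaperone Unc93b1. Most of the receptors signal through Myd88 to kinases that release NF-kappa B, whereas Tlr3 uses the adaptor Ticam1.

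Of the 10 genes, 1 passed the test between plasma-positive and plasma-negative microglia. Ly86 encodes MD-1, the secreted partner of the receptor-like protein Cd180. It rose 1.29-fold (95% interval 1.16 to 1.43, n = 4 per group). No gene of the 10 passed in the lower direction in edgeR, DESeq2 or limma-voom, and Ly86 alone had an unadjusted p under 0.05 in each of these. Among all 13277 genes tested with edgeR, 1.41% passed in either direction, 0.844% as higher and 0.565% as lower in plasma-positive libraries. DESeq2 called 6.43% of 14980 genes and limma-voom 1.97%. With 10 genes, a single call is too few to set their share against that background. The log2 changes of the 10 ran from -0.37 to 0.36 with a median of 0.13, beside a median of 0.01 over all genes tested. A positive log2 change was fitted for 6 of the 10. That count depends on the scaling, because Tlr2 was -0.01 with library totals only and Tlr1, Cd14, Tlr9 and Tlr13 were positive on log2(RPKM + 1). The groups did not overlap for 1 of the 10, again Ly86, where 10.3% of all tested genes had groups that did not overlap. In bulk RNA, fewer cells with a transcript and less of it per cell cannot be told apart, and this holds for each value below.

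The start-site sequences of Ly86, the gene that rose, and of Tlr2 and Tlr13, the receptors with the highest levels, are printed for reference. They come from RefSeq promoter windows of build GRCm38.p6, which run from 250 bases before to 50 bases after a start site and were found for 7 of the 10 genes. Each stretch is cut where the first annotated exon begins and is written 5′ to 3′ on the strand of the gene. The Ly86 stretch is chr13:37345095-37345207 on the plus strand, the Tlr2 stretch is chr3:83841768-83841858 on the minus strand, and the Tlr13 stretch is chrX:106143025-106143203 on the plus strand. Capitals mark matches to the 6 motifs searched on both strands.
Ly86: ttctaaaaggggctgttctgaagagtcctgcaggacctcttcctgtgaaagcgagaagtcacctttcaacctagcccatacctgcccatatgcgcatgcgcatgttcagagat
Tlr2: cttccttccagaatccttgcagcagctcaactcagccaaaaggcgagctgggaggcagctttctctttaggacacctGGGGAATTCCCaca
Tlr13: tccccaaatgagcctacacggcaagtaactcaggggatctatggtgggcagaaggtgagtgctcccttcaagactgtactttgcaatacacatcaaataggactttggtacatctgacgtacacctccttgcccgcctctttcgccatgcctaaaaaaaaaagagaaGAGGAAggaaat
The capitals in Tlr2 are overlapping matches to the kappa B motif of NF-kappa B, which 8.5% of all 32851 windows of 300 bases hold. The printed stretches are shorter than those windows. The capitals in Tlr13 match GAGGAA, the core bound by the myeloid factor PU.1, present in 28.3% of the windows. The printed Ly86 stretch holds no match to either motif, nor to the interferon response motif GAAANNGAA (8.6% of windows), which does occur in the Ly86 window at its start site, downstream of the printed bases. It holds no match to the AP-1 motif TGANTCA (7.8%), the E-box CACGTG (7.2%) or the TATA box TATAAA (13.6%). These are letter matches only, and no binding was measured in this series.

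The libraries held between 2963094 counts (plasma-negative replicate 4) and 21422738 counts (plasma-negative replicate 1). The label microglia was checked with 12 defining markers, among them P2ry12 and Tmem119, and all 12 were above 3 counts in both groups. Their levels in CPM (counts scaled to each library by TMM) summed to 74986 to 87753 CPM in plasma-negative and 82540 to 88818 CPM in plasma-positive libraries. Markers of blood monocytes, which also express Cd14 and Toll-like receptors, summed to 0 to 14.9 CPM in plasma-negative and 2.31 to 55.4 CPM in plasma-positive libraries. Chil3 alone gave 42.1 CPM of the highest of these sums, in plasma-positive replicate 3. Of that list, 7 of 10 were above 3 counts in some plasma-positive library and 3 of 10 in some plasma-negative library, and F13a1 was at 0 in all. Neutrophil markers summed to 282 to 342 CPM and 298 to 1270 CPM, of which Csf3r alone gave 281 to 384 CPM in every library. Outside plasma-positive replicate 3, no other marker of that list exceeded 1.98 CPM. The highest sum was that of plasma-positive replicate 3, which held S100a8 at 300 CPM (5908 counts) and Ngp at 430 CPM (8481 counts), whereas Retnlg, Ly6g, Mmp8, Mmp9 and Cxcr2 were at 0 in all libraries. Border-associated macrophage markers summed to 1.26 to 4.91 CPM and 3.74 to 16.5 CPM, with Cd163, Lyve1 and Cd209f at 0 in all libraries. Of the microglia markers 2 of 12 were called higher in plasma-positive libraries and 0 lower. Oligodendrocyte markers summed to 158 to 230 CPM in plasma-negative and 222 to 537 CPM in plasma-positive libraries, and neuron markers to 2.69 to 33.6 CPM and 9.90 to 264 CPM, with 1 of 5 tested neuron markers called higher. The highest neuron sum was that of plasma-positive replicate 2, but not every marker of that list peaked there. Pomc was at 0 in every plasma-negative library and at 2.09, 1.07, 6.80 and 11.3 CPM in plasma-positive replicates 1 to 4. The other neuron markers were counted in some plasma-negative library. The part of these other markers in any result below was not tested, except where a value without plasma-positive replicate 2 or 3 is given.

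Ly86 (chromosome 13, 37345208 to 37419036, plus strand) had the highest level of the 10 genes. Its level was 1766, 1705, 1910 and 1718 CPM in plasma-negative replicates 1 to 4. In plasma-positive replicates 1 to 4 it was 2215, 2233, 2116 and 2570 CPM. Every plasma-positive library lay above every plasma-negative one, and the highest value was that of plasma-positive replicate 4. The group means were 1775 ± 93.9 and 2283 ± 198 CPM (SD, n = 4 each). Its log2 change was 0.36 (SE 0.07, 95% interval 0.21 to 0.52, edgeR quasi-likelihood test, adjusted p = 0.0284 over all genes). Counts behind these values ran from 5107 in plasma-negative replicate 4 to 43916 in plasma-positive replicate 2.

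The sign of the Ly86 change was positive in each of 21 alternative analyses, with log2 changes of 0.25 to 0.49, but the call was kept in 9 of them. Among the analyses that lost it, the adjusted p was 0.115 with library totals only, where the log2 change was 0.25. The TMM scaling factors, which correct totals for composition, were 1.0 to 1.06 in plasma-negative and 0.952 to 0.979 in plasma-positive libraries. After a correction for exon length and GC content the log2 change was 0.32 and the adjusted p 0.106. The protein-coding transcript of Ly86 is 1134 bases long, against 3632 bases of merged exons in the annotation, and with the lengths of coding transcripts the values were 0.28 and 0.152. Leaving out 1 library kept the call only without plasma-positive replicate 3 (log2 change 0.40, edgeR adjusted p = 0.0393), the library with the neutrophil markers. Without plasma-negative replicate 1, 2, 3 or 4 the adjusted p was 0.0895, 0.0872, 0.0525 and 0.0556. Without plasma-positive replicate 1, 2 or 4 it was 0.0757, 0.0731 and 0.07.

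**Figure D1:**
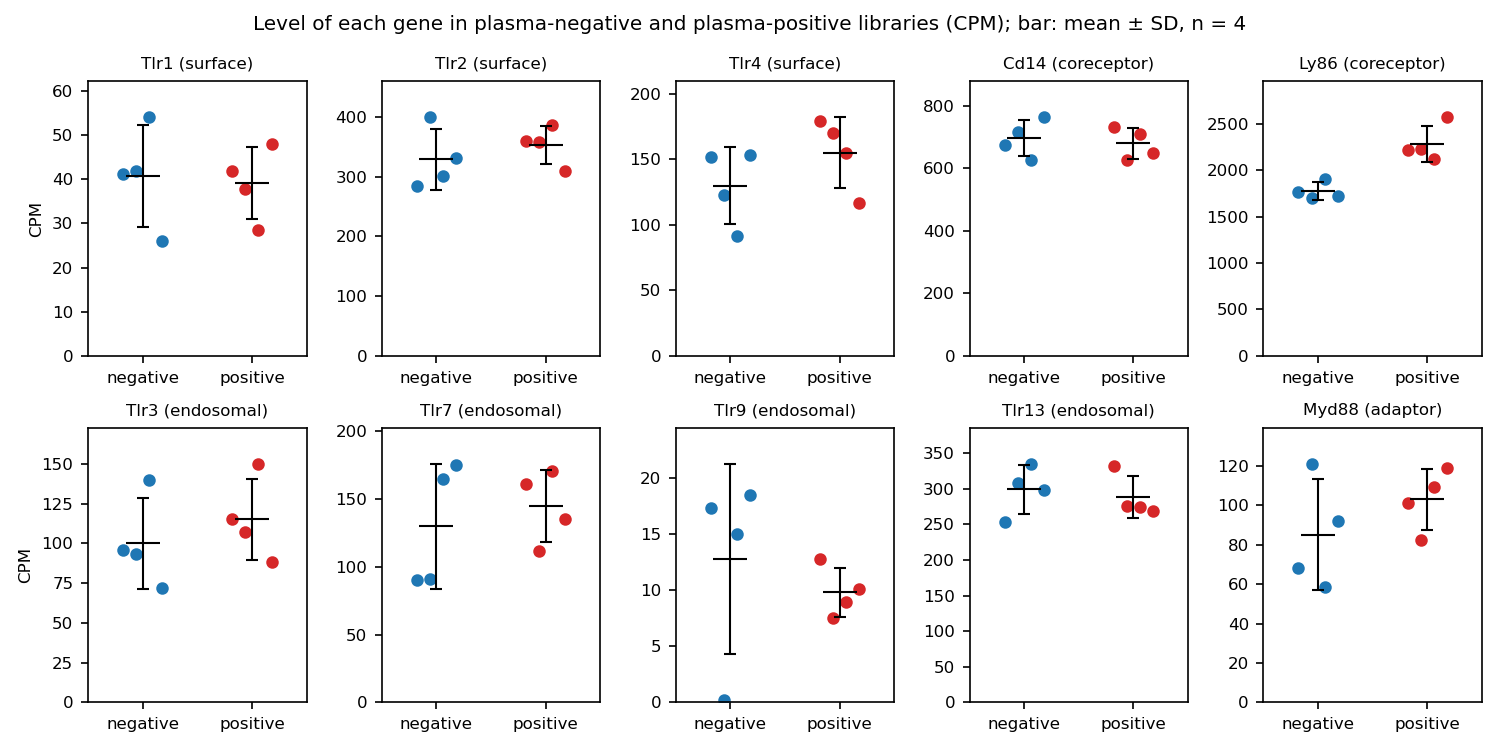
Level of each of the 10 genes in CPM (vertical axes from 0, one scale per gene) in the 4 plasma-negative (blue) and 4 plasma-positive (red) libraries, in replicate order from left to right; the horizontal bar is the mean and the whiskers are 1 SD. Only in the Ly86 panel do the groups not overlap (1705 to 1910 against 2116 to 2570 CPM), and in the Tlr9 panel plasma-negative replicate 2 lies at 0.189 CPM.

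Ly86 was also set against Cd180, the receptor-like protein that its product binds. Cd180 was named after its values were seen. Mean Cd180 was 197 ± 19.6 CPM without the dye and 174 ± 22.4 CPM with it (SD, n = 4), and the log2 change was -0.18 (edgeR adjusted p = 0.623). Per exon length, the log2 ratio of Ly86 over Cd180 in the deposited RPKM values (reads scaled by exon length and library size) ran from 3.26 to 3.6 in plasma-negative libraries. It ran from 3.82 to 4.49 in plasma-positive libraries, so the ratio did not overlap between groups. The mean ratio was 3.49 ± 0.16 and 4.03 ± 0.31 (SD, n = 4), a difference of 0.55 that follows in part from the Ly86 values already given and was not tested.

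Cd14 encodes a membrane-anchored protein that passes lipopolysaccharide and lipoproteins to Tlr4 and Tlr2. Its level was 676, 716, 627 and 763 CPM in plasma-negative replicates 1 to 4. In plasma-positive replicates 1 to 4 it was 731, 628, 711 and 648 CPM. The libraries of the groups were interleaved. The plasma-negative mean was 696 ± 58.2 CPM and the plasma-positive mean 680 ± 49.3 CPM (SD, n = 4). A log2 change of -0.03 was fitted and turned to 0.09 on log2(RPKM + 1), with a 95% interval of -0.23 to 0.16 (edgeR adjusted p = 0.924). Of the 10 genes, Cd14 had the narrowest interval after Ly86. A change as large as that of Ly86 lies outside it, whereas a change of up to 0.16 does not. The value was -0.20 with the length and GC correction (edgeR adjusted p = 0.493) and -0.15 with library totals only (edgeR adjusted p = 0.471).

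Among the surface receptors, Tlr2 had the highest level. Tlr2 (chromosome 3, 83836272 to 83841767, minus strand) binds bacterial lipoproteins together with Tlr1 or Tlr6. It stood at 284, 399, 301 and 331 CPM in plasma-negative replicates 1 to 4 and at 359, 358, 386 and 310 CPM in plasma-positive replicates 1 to 4. Plasma-negative replicate 2 was the highest of the 8, and the groups overlapped. The means were 329 ± 50.9 and 353 ± 31.6 CPM (SD, n = 4). For Tlr2 the log2 change was 0.10, or -0.01 with library totals only, with a 95% interval of -0.16 to 0.37 (edgeR adjusted p = 0.784).

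Tlr4, the receptor for lipopolysaccharide, stood at 152, 123, 91.4 and 153 CPM in plasma-negative replicates 1 to 4. It stood at 179, 170, 155 and 117 CPM in plasma-positive replicates 1 to 4. The 3 highest libraries were plasma-positive, but plasma-positive replicate 4 lay below 3 of the plasma-negative libraries. The means were 130 ± 29.1 and 155 ± 27.1 CPM (SD, n = 4), and the log2 change was 0.26, with a 95% interval of -0.15 to 0.68 (edgeR adjusted p = 0.61). This was the lowest adjusted p of the 9 genes that did not pass. With the length and GC correction the log2 change was 0.43 (edgeR adjusted p = 0.435), and with coding transcript lengths it was 0.49 (edgeR adjusted p = 0.362). Ly96, which encodes the lipopolysaccharide-binding partner MD-2 and was named after its values were seen, had 27.1 ± 6.56 and 33.4 ± 9.05 CPM (SD, n = 4; edgeR adjusted p = 0.737). The log2 ratio of Cd14 over Tlr4 in RPKM averaged 4.13 ± 0.27 without the dye and 3.83 ± 0.25 with it (SD, n = 4), so Cd14 transcript exceeded that of its receptor in all 8 libraries.

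Tlr1, a partner of Tlr2, stood at 41.1, 41.9, 54.0 and 25.9 CPM in plasma-negative replicates 1 to 4. It stood at 41.9, 37.7, 28.6 and 48.0 CPM in plasma-positive replicates 1 to 4. The plasma-negative libraries held both the highest and the lowest value. For Tlr1 the log2 change was -0.07, or 0.08 on log2(RPKM + 1), with a 95% interval of -0.66 to 0.52 (edgeR adjusted p = 0.946). Of the 50-base stretches of the longest coding Tlr1 transcript, 15.3% also occur in Tlr6, its neighbour on chromosome 5, so the reads of this pair may have been split or dropped by the authors' counting. Tlr6 stood at 105 ± 13.5 and 109 ± 30.4 CPM (SD, n = 4; edgeR adjusted p = 0.936).

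Of the endosomal receptors, Tlr13 had the highest level. Tlr13 (X chromosome, 106143204 to 106160493, plus strand) is a rodent receptor for bacterial ribosomal RNA. It stood at 253, 308, 335 and 298 CPM in plasma-negative replicates 1 to 4 and at 332, 276, 275 and 269 CPM in plasma-positive replicates 1 to 4. Plasma-positive replicate 1 stood apart from its group, and the groups overlapped. The means were 299 ± 34.1 and 288 ± 29.4 CPM (SD, n = 4). For Tlr13 the log2 change was -0.05, or 0.07 on log2(RPKM + 1), with a 95% interval of -0.31 to 0.20 (edgeR adjusted p = 0.908).

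Tlr7, the receptor for single-stranded RNA, stood at 90.1, 90.8, 165 and 175 CPM in plasma-negative replicates 1 to 4. It stood at 161, 112, 171 and 135 CPM in plasma-positive replicates 1 to 4. The plasma-negative libraries fell into a low and a high pair, and all plasma-positive values lay between the lowest and the highest of them. For Tlr7 the log2 change was 0.16 with a 95% interval of -0.36 to 0.68 (edgeR adjusted p = 0.845). Tlr3, the receptor for double-stranded RNA, stood at 96.0, 93.5, 140 and 72 CPM in plasma-negative and at 115, 107, 150 and 88.4 CPM in plasma-positive replicates 1 to 4. Its replicate 3 was the highest library of each group and its replicate 4 the lowest. For Tlr3 the log2 change was 0.19 with a 95% interval of -0.29 to 0.67 (edgeR adjusted p = 0.778). The antisense gene Gm45542 overlaps 7.3% of the Tlr3 exon length, and the use of strand in counting is not given in the sources used here.

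Tlr9, the receptor for unmethylated CpG DNA, had the lowest level of the 10 genes. It stood at 17.4, 0.189, 15.0 and 18.5 CPM in plasma-negative replicates 1 to 4. In plasma-positive replicates 1 to 4 it stood at 12.8, 7.52, 8.98 and 10.1 CPM. Plasma-negative replicate 2 held 3 Tlr9 counts in a library of 15206086, whereas the other 3 plasma-negative libraries lay above all plasma-positive ones. For Tlr9 the log2 change was -0.37 with a 95% interval of -2.21 to 1.47 (edgeR adjusted p = 0.91), and it was 0.03 on log2(RPKM + 1). Without plasma-negative replicate 2 it was -0.78 (edgeR adjusted p = 0.472). Without plasma-negative replicate 1, 3 or 4 it was -0.17, -0.27 and -0.14, so several single libraries move the size of this value, and none of them brings a call.

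Myd88 encodes the adaptor that most Toll-like receptors share. It stood at 68.1, 121, 58.3 and 92.2 CPM in plasma-negative replicates 1 to 4 and at 101, 82.5, 109 and 119 CPM in plasma-positive replicates 1 to 4. Plasma-negative replicate 2 was the highest of the 8, and 3 of the plasma-positive libraries lay above the other plasma-negative ones. The means were 85.0 ± 28.1 and 103 ± 15.4 CPM (SD, n = 4), and the log2 change was 0.28, with a 95% interval of -0.23 to 0.78 (edgeR adjusted p = 0.672). Exons of the neighbouring gene Acaa1a, on the other strand, overlap 11.3% of the Myd88 exon length.

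**Figure D2:**
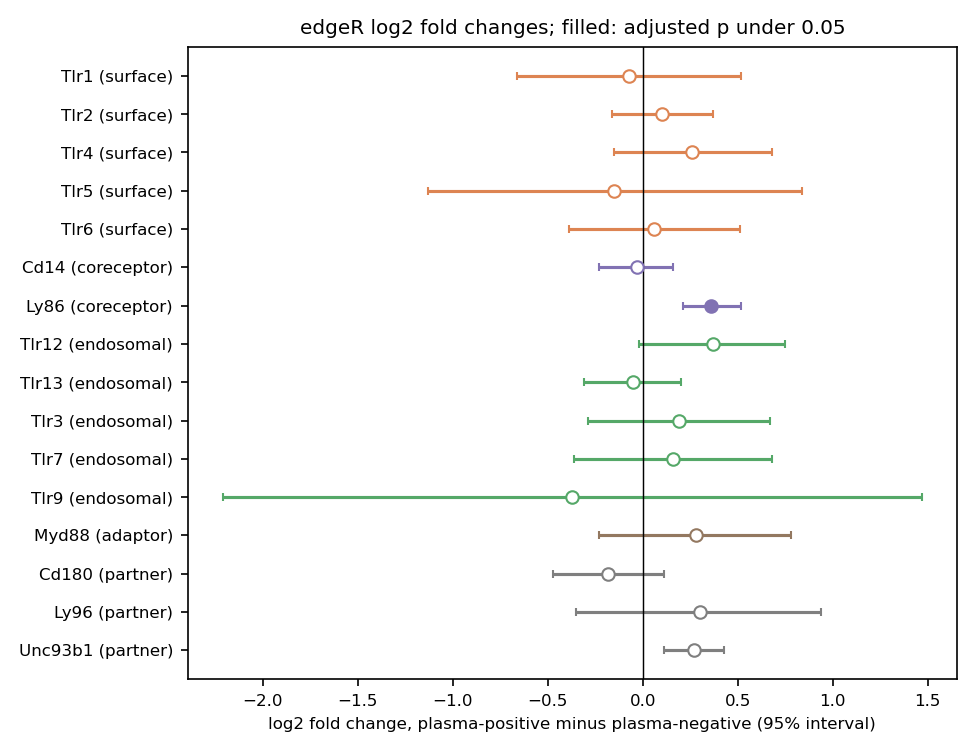
Log2 fold changes of plasma-positive over plasma-negative microglia (horizontal axis) with 95% intervals from edgeR for the 10 genes, 3 further Toll-like receptors and 3 partners, coloured by role; the filled point has an adjusted p under 0.05. Ly86 is filled at 0.36, and every open point except Unc93b1 has an interval that reaches 0. Of the 10 genes, Tlr1, Cd14, Tlr9 and Tlr13 change sign on log2(RPKM + 1), and Tlr2 does so with library totals only. Sign changes of the further receptors and partners are not listed here.

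Levels of different genes were compared per exon length, on the deposited RPKM values. Over the 8 libraries Ly86 had the highest mean at 429 ± 80.8 RPKM (SD, n = 8), followed by Cd14 at 303 ± 26.5. Tlr2 followed at 86.7 ± 12.6 and Tlr13 at 52.1 ± 5.46 RPKM. Each of these 4 genes lay above the next in all 8 libraries with no overlap of their ranges. Myd88 (27.9 ± 7.12), Tlr7 (25.8 ± 7.07), Tlr4 (19.7 ± 4.75) and Tlr3 (15.9 ± 4.16 RPKM) formed a run in which each gene overlapped its neighbour. Myd88 exceeded Tlr7 in 5 of 8 libraries, and Tlr7 exceeded Tlr4 in 6 of 8. Tlr4 exceeded Tlr3 in 6 of 8. Tlr1 followed at 9.08 ± 1.98 RPKM, below Tlr3 in all 8 libraries although the ranges overlapped. Tlr9 was last at 2.47 ± 1.25 RPKM and below Tlr1 in all 8. The order by group mean was the same in plasma-negative and plasma-positive libraries. It was also the same over all libraries with TMM-scaled CPM per kilobase. The RPKM values divide by merged exon length, which for Ly86 is longer than its coding transcript.

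**Figure D3:**
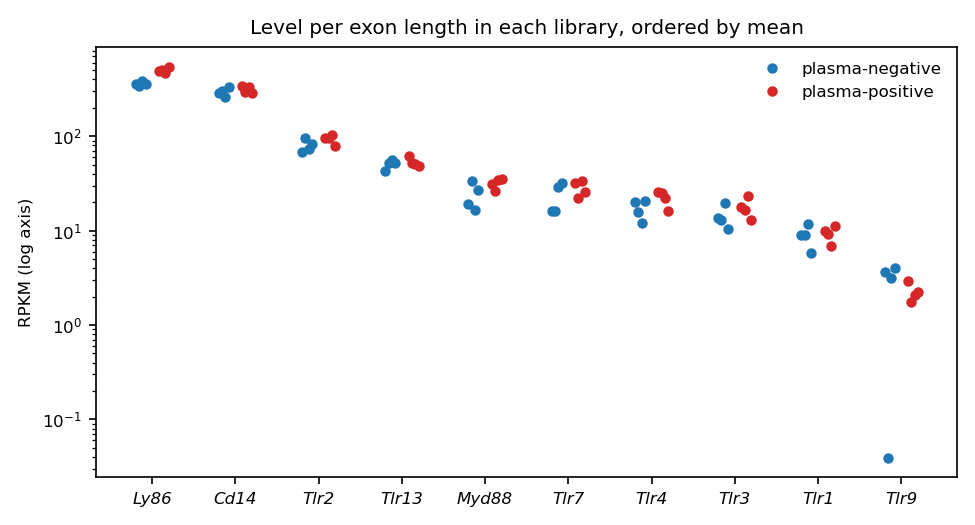
RPKM of each gene (vertical axis, log scale) in the 4 plasma-negative (blue) and 4 plasma-positive (red) libraries, with genes ordered by their mean over all 8. Ly86 and Cd14 lie at or above 262 RPKM, Tlr9 lies at or below 3.98 RPKM, and the single low Tlr9 point is plasma-negative replicate 2 at 0.0391 RPKM.

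The replicate spread differed between genes. The coefficient of variation of CPM among plasma-negative libraries was 5.29% for Ly86, 8.36% for Cd14 and 11.4% for Tlr13. It was 35.4% for Tlr7, 33.0% for Myd88 and 66.7% for Tlr9. Among plasma-positive libraries it ran from 7.25% for Cd14 to 22.5% for Tlr9. The 4 genes of highest level (Ly86, Cd14, Tlr2 and Tlr13) had the smallest spread in both groups. With TMM scaling alone, the 95% intervals of Cd14 and Tlr13 exclude a change as large as that of Ly86, and those of the other 7 genes do not.

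Surface and endosomal receptors were compared as sums in RPKM. The RPKM values of all genes lean toward plasma-positive libraries, so the groups are compared by the ratio of the sums within each library. The surface sum of Tlr1, Tlr2 and Tlr4 was 97.8, 120, 96.1 and 109 RPKM in plasma-negative replicates 1 to 4 and 131, 131, 132 and 107 RPKM in plasma-positive replicates 1 to 4. The endosomal sum of Tlr3, Tlr7, Tlr9 and Tlr13 was 76.2, 80.6, 108 and 98.3 RPKM in plasma-negative and 114, 93.0, 110 and 89.4 RPKM in plasma-positive libraries. Surface receptors gave the larger sum in all libraries except plasma-negative replicate 3. Their log2 ratio was 0.36, 0.58, -0.17 and 0.14 in plasma-negative libraries and 0.20, 0.49, 0.26 and 0.26 in plasma-positive libraries. All plasma-positive ratios lay inside the range of the plasma-negative ones. The means were 0.23 ± 0.32 and 0.30 ± 0.13 (SD, n = 4). The difference of 0.08 is smaller than the SD of either group, and without plasma-negative replicate 3 it was -0.06. With all 12 Toll-like receptors of the table the difference was 0.02. Surface receptors took 53.9% ± 5.49 of the sum of the 7 in plasma-negative libraries and 55.2% ± 2.19 in plasma-positive ones (SD, n = 4).

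**Figure D4:**
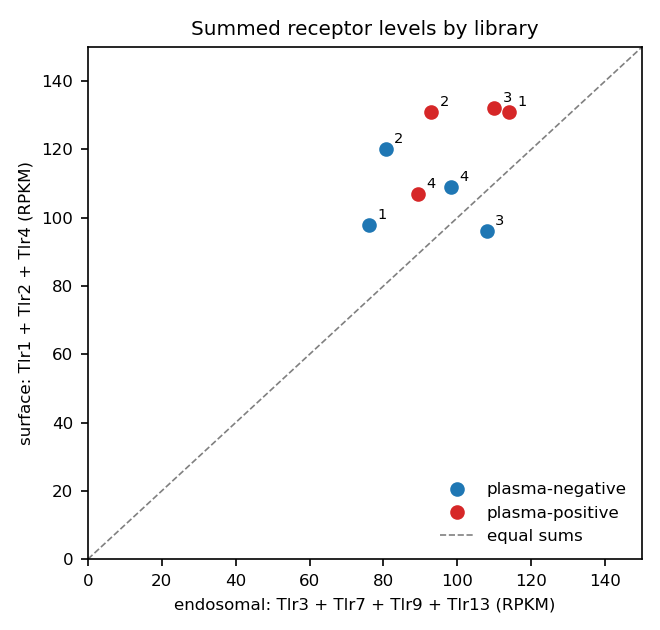
Summed RPKM of the surface receptors (vertical axis) against that of the endosomal receptors (horizontal axis) in each library, numbered by replicate, with a dashed line where both sums are equal. Of the 8 libraries, only plasma-negative replicate 3 (96.1 against 108 RPKM) lies below the line, and the groups intermix in their distance from it.

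Within the total RPKM of all 12 receptors, Tlr2 took 34.2% ± 4.72 in plasma-negative libraries and 34.5% ± 1.68 in plasma-positive ones (SD, n = 4). Tlr13 took 21.7% ± 1.19 and 19.7% ± 1.46, so these receptors together made up most of the transcript of the family in both groups. Tlr7 took 9.91% ± 3.05 and 10.4% ± 1.67. Tlr8 and Tlr11 were named after their values were seen. Tlr8 had 0 counts in every library. Tlr11 reached 93 counts in plasma-negative replicate 1 and was at 0 in 5 libraries, and neither entered the edgeR test.

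A search for genes that vary with a member was made for Ly86 and Tlr4, the 2 genes of the 10 with the smallest p. It used the log2 CPM of 8889 genes over 8 libraries after subtraction of the group means, so it reads only the spread within groups. The genes with the highest Pearson correlation to Ly86 were Pa2g4 (0.97), Gm27201 (0.97), Tk2 (0.96), Gm44729 (0.94) and Gm28874 (0.94). Those for Tlr4 were Slk (0.97), Dph7 (0.97), Calcrl (0.96), Zbtb26 (0.96) and Arl2bp (0.96). None of these genes passed the test between the groups. Among pairs of the 10 genes the same correlation ran from -0.77 for Tlr9 with Tlr2 to 0.72 for Ly86 with Tlr1. With 8 libraries and this many genes searched, such values are a description only, and the points share library depth and composition.

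Genes that act with or below the receptors were read from 7 lists of 89 genes, of which 73 were tested. In edgeR, 2 of the 73 passed (2.74%, against 1.41% of all genes), both as higher, 0 passed as lower. An unadjusted p under 0.05 was found for 11 of the 73 (15.1%), near the 13.8% of all tested genes. The median log2 change of the 73 was -0.03. The pair that passed were Rela, which encodes the p65 subunit of NF-kappa B, and Ccl5, a chemokine gene that responds to NF-kappa B.

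Rela stood at 161, 156, 172 and 141 CPM in plasma-negative replicates 1 to 4 and at 270, 214, 234 and 221 CPM in plasma-positive replicates 1 to 4. All plasma-positive libraries lay above all plasma-negative ones. For Rela the log2 change was 0.57 with a 95% interval of 0.31 to 0.84 (edgeR adjusted p = 0.0423). The call was lost on leaving out any 1 of the 8 libraries, with adjusted p of 0.073 to 0.128, and with the length and GC correction (0.43, adjusted p = 0.175). It was also lost with relative log expression scaling (0.55, adjusted p = 0.052) and with library totals only (0.46, adjusted p = 0.0998). No Ccl5 read was counted in any plasma-negative library (0 counts), against 209, 151, 493 and 103 counts in plasma-positive replicates 1 to 4, a mean of 16.8 CPM. It was at least 16.6-fold higher in plasma-positive microglia (edgeR adjusted p = 0.00473), taking 3 counts in the shallowest plasma-negative library as the floor. Ccl5 is also made by T cells and other leukocytes. Of the B and T cell markers, 7 of 9 (among them Cd3e, Cd3d, Cd8a and Cd4) were at 0 in all libraries, and the list summed to at most 0.711 CPM. Other leukocyte markers were higher. Dendritic cell markers summed to 6.06 to 19.0 CPM in plasma-negative and 13.8 to 25 CPM in plasma-positive libraries. Of these, Itgax, which microglia can also express, did not overlap between the groups (0 to 9.96 and 10.6 to 20.7 CPM), and Cd209a was at 0 in all. The blood monocyte sums given above reached a higher level only in plasma-positive replicate 3 (55.4 CPM), where Chil3 stood at 42.1 CPM and was at 0 in all other libraries. The other plasma-positive sums lay below the 14.9 CPM of plasma-negative replicate 2, which held Ccr2 at 13.8 CPM. The part of these cells in the Ccl5 difference was not tested.

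Among the receptor partners and chaperones, 0 of 7 tested genes passed in edgeR, 1 had an unadjusted p under 0.05, and the median log2 change was -0.07. Unc93b1, which carries the endosomal receptors out of the endoplasmic reticulum, had the highest level of any gene in the lists at 608 ± 98.0 RPKM (SD, n = 8). It stood at 1967, 2112, 2208 and 2425 CPM in plasma-negative and at 2392, 2668, 2630 and 2797 CPM in plasma-positive replicates 1 to 4. Plasma-negative replicate 4 and plasma-positive replicate 1 were the only overlap between the groups. For Unc93b1 the log2 change was 0.27 with a 95% interval of 0.11 to 0.43 (edgeR adjusted p = 0.101). It passed in DESeq2 (adjusted p = 0.0416), which called 6.43% of all genes, and in limma-voom (adjusted p = 0.0342). It also passed with limma on log2(RPKM + 1) (adjusted p = 0.0246) and log2(RPKM + 0.1) (adjusted p = 0.0273), scales that lean toward plasma-positive libraries. Of the edgeR fits with 1 library left out, it passed only without plasma-negative replicate 4 (0.33, adjusted p = 0.0456). With the length and GC correction its log2 change was 0.11 (edgeR adjusted p = 0.728). The chaperones Hsp90b1 and Cnpy3, which fold Toll-like receptors, had 224 ± 10.2 and 62.0 ± 7.38 RPKM (SD, n = 8).

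None of the other receptors passed in edgeR (3 tested) or DESeq2 (4 tested), with 0 and 1 at an unadjusted p under 0.05. Tlr12 stood at 55.6 ± 5.46 and 71.5 ± 8.75 CPM (SD, n = 4; log2 change 0.37, edgeR adjusted p = 0.394), and Tlr5, the flagellin receptor, at 18.8 ± 9.62 and 16.8 ± 6.01 CPM (edgeR adjusted p = 0.933). Of the other adaptors, 0 of 5 passed in edgeR or DESeq2, with a median log2 change of -0.15 and 0 genes at an unadjusted p under 0.05 in either. Pik3ap1 had 39.5 ± 2.93 RPKM, Ticam2 8.24 ± 1.85 RPKM and Ticam1, the adaptor of Tlr3, 7.52 ± 2.72 RPKM (SD, n = 8). The first exceeded the Myd88 mean and the other two lay below it.

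Of the kinases and ubiquitin ligases, 0 of 22 passed in edgeR and 2 of 22 in DESeq2 (Map3k7 and Tab2, named after their values were seen), where 6.43% of all genes passed, with 4 in edgeR at an unadjusted p under 0.05 and a median log2 change of 0.01. Their highest levels were those of Irak2 (30.4 ± 3.72 RPKM), Peli1 (21.5 ± 4.19) and the Bruton kinase Btk (16.4 ± 5.62 RPKM; SD, n = 8). Of the transcription factors, 1 of 12 passed (Rela), with a median of -0.15. Irf8 and Irf5, which act below these receptors in myeloid cells, had 117 ± 13.1 and 106 ± 21.3 RPKM (SD, n = 8). Of the inhibitors, 0 of 14 passed in edgeR and 1 of 15 in DESeq2 (Inpp5d, named after its values were seen), which is 6.67% against 6.43% of all genes, with 2 in edgeR at an unadjusted p under 0.05 and a median of -0.17. The kinase Lyn had 161 ± 23.0 RPKM, the phosphatase Ptpn6 123 ± 10.7 RPKM and the NF-kappa B inhibitor Nfkbia 96.3 ± 11.9 RPKM (SD, n = 8). Of the response genes, 1 of 10 tested passed in edgeR (Ccl5) and 4 of 13 in DESeq2, where 6.43% of all genes passed, among them Cxcl10 and Il1rn, which were named after their values were seen and did not enter the edgeR test. The list's median log2 change was 0.42 and is the same with Ccl5 at its bound. Cd86 had 88.3 ± 13.2 RPKM, Il1a 41.2 ± 8.17 RPKM and Ccl4 19.1 ± 13.9 RPKM (SD, n = 8), and none of these passed. The other 9 of 19 response genes were too low for the edgeR filter.

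**Figure D5:**
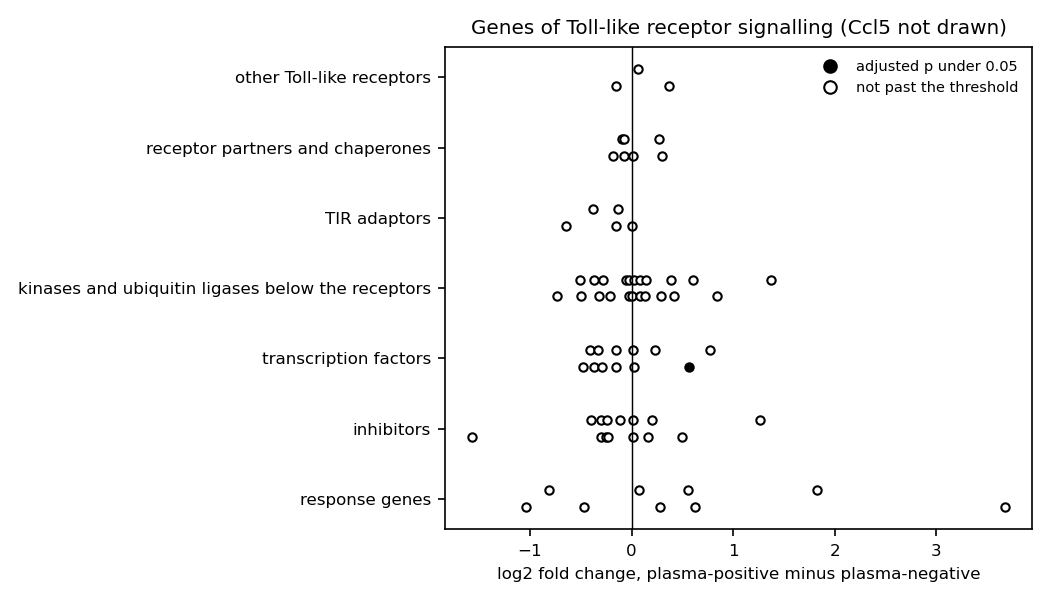
Log2 fold changes of plasma-positive over plasma-negative microglia (horizontal axis) for the tested genes of the 7 lists, with one point per gene and filled points for an adjusted p under 0.05 in edgeR. Rela at 0.57 is the only filled point, and Ccl5 is left out because its plasma-negative libraries were all at 0.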

How the data were processed

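Bulk RNA of 8 sorted microglia samples (4 plasma-negative, 4 plasma-positive) was made into Smart-seq2 libraries, per the labels' protocols, a full-length method without molecular identifiers. The deposited count table holds raw read counts per gene made by the authors. RPKM values, in which reads are scaled by exon length and library size, were deposited in a second table with the same rows, per the file headers. The library size behind them was larger than the total of counted reads in every library, by a wider margin in plasma-negative ones. Group differences in RPKM therefore lean toward plasma-positive libraries. The median log2 change of all tested genes was 0.11 on log2(RPKM + 1), against 0.01 in edgeR. The submitters' processing notes name bcl2fastq, Trim Galore, STAR and HTSeq and the build mm10, without versions. The treatment of strand and of multi-mapping reads is not given in the sources used here. Gene models were those of GENCODE M21 (35546 of 35583 identifiers matched). The 13 mitochondrial genes were listed at 0 counts.

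Counts were filtered with filterByExpr and tested with the quasi-likelihood F test of edgeR 4.0.16 in R 4.3.3, with TMM factors and group as the only term. P-values were adjusted by Benjamini-Hochberg over 13277 genes, with a threshold of 0.05. CPM values are TMM-scaled, and logs used a prior count of 2. Levels were compared between genes on RPKM, without a test. Alternatives were other scalings and filters, DESeq2 1.42.0, limma 3.58.1 (voom with quality weights, or log2 of RPKM plus 1 or 0.1), the replicate number as a block, a per-library loess fit that removes trends with exon length and GC content (span 0.3), and leaving out each library. The correction with coding transcript lengths was chosen after seeing the data.

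The 10 genes, the lists and the markers were chosen with earlier results of these data known. The text names all 10 genes, each list gene that passed, the 3 genes of highest RPKM per list, and the 5 genes most correlated with each of the 2 genes of smallest p. Other genes of the lists were named after their values were seen, and the text says so. Single cell type markers were also named with their values known. Library totals of 2963094 to 21422738 counts set the precision. Floors cover counting error only, because amplified reads are not independent molecules.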

Additional observations from a re-analysis of the deposited data

Results flagged for a closer look

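In 65 groups of 4 libraries (20 of them for the 10 genes, the rest for genes of the lists), 4 held a library farther from the others than Dixon's 95% limit allows. Chance gives about 1 in 20 such groups. One of the 4 belongs to the 10 genes: Tlr13 stood at 332 CPM in plasma-positive replicate 1, with the nearest library of its group at 276 CPM. Tlr5 stood at 7.88 CPM in plasma-positive replicate 2, with the nearest at 19.0 CPM. Cnpy3 stood at 172 CPM in plasma-positive replicate 4, with the nearest at 219 CPM. Irf8 stood at 1225 CPM in plasma-positive replicate 3, with the nearest at 1045 CPM.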

How the results depend on the processing

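The count of genes passing was 187 in edgeR and 963 in DESeq2, and 447 or 432 with limma on log2(RPKM + 1) or log2(RPKM + 0.1). It was 50 with the length and GC correction, 60 with coding transcript lengths (chosen after seeing the data) and 66 to 203 when 1 library was left out. The share that was higher was 59.9%, against 28.2% with library totals only (median of all genes -0.11), 86.8% and 85.6% on the RPKM scales (medians 0.11 and 0.16), 82.0% and 76.7% with the length corrections and 49.8% in DESeq2. Libraries with the same replicate number deviated together with correlations of 0.0109 to 0.0315, under the 0.1 set for treating them as pairs. Whether they share animals is not given in the labels, so the block is an alternative only. Plasma-negative replicate 1 correlated more with plasma-positive replicate 2 (0.0492) than with its own number (0.0119). With the replicate block, 74 genes passed (70.3% higher), and 14 (71.4% higher) with the block and the length and GC correction together.

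Ly86 missed the threshold with library totals only (0.25), the replicate block (0.36, adjusted p = 0.0794), the length and GC correction (0.32), that correction with the replicate block (0.32, adjusted p = 0.226) and coding transcript lengths (0.28). When 1 library was left out its log2 change ran from 0.30 to 0.40. The cause was not tested.

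Signs that turned belong to genes that did not pass in any of 21 alternatives. Tlr1 was 0.08 and 0.09 on the 2 RPKM scales and -0.23 to 0.10 when 1 library was left out. Tlr2 was -0.01 with library totals only. Cd14 was 0.09 and 0.09 on the RPKM scales, -0.20 with the length and GC correction (with and without the block) and -0.08 to 0.02 when 1 library was left out. Tlr13 was 0.07 and 0.08 on the RPKM scales, 0.09 with coding transcript lengths and -0.13 to 0.01 when 1 library was left out. Tlr9 was 0.64 in limma-voom, 0.03 and 0.52 on the RPKM scales, 0.23 with the replicate block and 0.09 with the block and the correction. Tlr3, Tlr4, Tlr7 and Myd88 kept a positive sign in all 21, but when 1 library was left out they ran from 0.04 to 0.40, 0.13 to 0.38, 0.02 to 0.33 and 0.13 to 0.51. With the length and GC correction they were 0.34, 0.43, 0.27 and 0.10, and with coding transcript lengths 0.43, 0.49, 0.36 and 0.13.

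The pathway lists had 2 genes past the threshold. With the replicate block Rela was 0.57 (edgeR adjusted p = 0.097) and no longer passed. With the block and the correction together Ccl5 no longer passed (edgeR adjusted p = 0.0825). There was 1 with relative log expression factors, library totals only, the replicate block, the length and GC correction or coding transcript lengths, and 0 in edgeR with the correction and the block together, where 11 were at an unadjusted p under 0.05. DESeq2 gave 9 of 79 (11.4%, against 6.43% of all genes), limma-voom gave 3 of 73 (4.11%, against 1.97%), and leaving out 1 library gave 1 to 2. The surface over endosomal log2 ratio differed by 0.08 between groups, and by -0.06 to 0.19 when 1 library was left out. TMM-scaled CPM per kilobase were higher than RPKM (559 against 429 for Ly86) without a change of order. The shallowest library, plasma-negative replicate 4, limits Tlr9 (55 counts) and Tlr1 (77 counts) most.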

Other observations

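Some signalling genes of the lists had wide differences that did not pass in edgeR. They were named after their values were seen. Nlrp3, the sensor of an inflammasome primed by Toll-like receptors, stood at 36.9, 25.9, 46.7 and 46.4 CPM in plasma-negative replicates 1 to 4 and at 16.2, 16.7, 17.2 and 25.5 CPM in plasma-positive replicates 1 to 4. The groups did not overlap, and the log2 change was -1.04 (edgeR adjusted p = 0.119). Over all alternatives it was -1.22 to -0.76, and it passed only in DESeq2 (adjusted p = 0.00976).

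The kinase Map3k7 (TAK1) and its ubiquitin-binding partner Tab2 had log2 changes of opposite sign. Map3k7 stood at 12.1 ± 3.94 and 31.8 ± 14.3 CPM (SD, n = 4; log2 change 1.37, edgeR adjusted p = 0.156). Tab2 stood at 92.3 ± 17.2 and 55.8 ± 14.2 CPM (SD, n = 4; log2 change -0.73, edgeR adjusted p = 0.138). In DESeq2 the adjusted p was 0.0388 for Map3k7 and 0.021 for Tab2. Neither passed in the other alternatives.

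Tlr9 in plasma-negative replicate 2 held 3 counts, where the other plasma-negative libraries held 392, 257 and 55. The same library held 666 counts of Tlr1 and 6343 of Tlr2, and its Tlr9 value was the lowest of any of the 10 genes in any library.

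Tnf and Il1b, genes induced through these receptors, were also named after their values were seen. Tnf stood at 8.77, 0, 4.37 and 3.36 CPM in plasma-negative and at 5.28, 0.153, 3.65 and 2.90 CPM in plasma-positive replicates 1 to 4, so its libraries numbered 2 were the lowest of each group. Il1b was at 0 in 3 plasma-negative libraries and 1 plasma-positive library and reached 9.57 CPM in plasma-positive replicate 1.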
